A study of Mus musculus with 4 samples.

Results

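The forkhead genes encode transcription factors that share a winged-helix DNA-binding domain. They were followed here in maps of H3K27me3, the trimethylated form of lysine 27 on histone H3, made from splenic germinal center B cells. The 41 members were chosen by name, as the Fox genes of the family, out of 21883 protein-coding genes of the RefSeq annotation on GRCm38.p6, the RefSeq name for the mm10 build. The rule used no measured value, but the members and classes were chosen with earlier results of these data known. For each member, the share of its gene body and of the 2000 bp to either side of each gene end that lay under peaks was computed in every library. Members were placed in 3 classes by what is known of their use. The B cell expressed class held Foxo1, Foxp1 and Foxm1. The broadly expressed class held 8 genes, and the developmental or tissue-restricted class (called developmental here) held the other 30.

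The study compared 2 mice with a B-cell knockout of Kdm6b (KO) with 2 wild-type mice (WT), all C57BL/6, with 1 CUT&Tag library per mouse. CUT&Tag uses an antibody to direct a transposase that cuts and tags DNA beside the mark. All mice had been immunised with sheep red blood cells, boosted with them on day 5 and killed on day 12, and germinal center B cells were sorted from the spleen. The title of the series calls them pre-plasma cells, and since the gate behind it is not stated, how far the cells had moved towards plasma cells is unknown. Kdm6b encodes an enzyme that removes methyl groups from H3K27. The Cre line, the deleted part of Kdm6b, the sort markers and the sex and age of the mice are not stated by the labels or the series description. Replicate numbers only name the libraries, and replicate 1 is given before replicate 2.

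Polycomb repressive complex 2 lays down H3K27me3, which is typical of genes that are kept silent, above all genes of other lineages and of the embryo. Many such genes have CpG-rich starts and lie within broad stretches of the mark. In B cells, Foxo1 drives early B cell gene programmes and the dark zone of the germinal center, Foxp1 is needed for early B cell development, and Foxm1 switches on genes of the late cell cycle. Most other forkhead genes act in embryonic tissues such as endoderm, mesenchyme, lens, thyroid and the nervous system.

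The depth of the libraries is unknown, because the deposited lists hold peaks and no reads. They held 80639 and 90417 peaks in KO cells, and 87486 and 82292 in WT cells. These covered 143.9 and 235.8 Mb in KO cells, and 212.6 and 101.4 Mb in WT cells, so that KO replicate 2 and WT replicate 1 were broadest and WT replicate 2 narrowest. Both genotypes thus held a broad and a narrow library, and values below follow that order for many members. The ends of 12 genes typical of germinal center B cells were mostly free of the mark, with 2 and 3 marked, here meaning a window under peaks for 25% or more, in KO cells and 1 and 0 in WT cells. Ms4a1 was marked in both KO libraries, at 33.5% and 41.85%, with 0% and 14.3% in WT cells. Spib was marked in KO replicate 1 and WT replicate 1, and Cd79a and Cd79b in KO replicate 2 alone. Bcl6, Mef2b, S1pr2 and Cd22 were at 0 at their gene ends in every library. In KO replicate 2, 10.1% of the body of Mef2b and 6.08% of that of Cd22 was covered. Of 7 T cell genes, 4 and 5 were marked in KO cells and 5 and 5 in WT cells. The counts were 5 and 6 against 7 and 5 of 7 myeloid genes, 2 and 4 against 2 and 2 of 6 plasma cell genes, 2 and 3 against 3 and 1 of 4 erythroid genes, and 1 of 3 NK genes in each library. Over all protein-coding genes the marked share was 33.5% and 46.3% in KO cells, and 40.8% and 26.3% in WT cells. The gene end of Kdm6b was covered to 100% and 100% in KO cells and to 100% and 80.3% in WT cells, which says nothing of the deletion. The part of other cells of the sort in the results was not tested.

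The sequences before 6 gene starts are shown because they span the outcomes described below. Foxa2 and Foxb2 were covered throughout in every library, Foxp1 was a B cell expressed gene with the mark, Foxo1 was one without it, and Foxd3 and Foxp3 were tissue-restricted genes without it. Each run is the 250 bases before the outermost listed start, read 5′ to 3′ along the gene, from RefSeq on GRCm38.p6, and capitals mark each CG, the pair read the same on both strands. They lie at chr2:148046970-148047219 on the minus strand (Foxa2), chr19:16873831-16874080 on the minus strand (Foxb2), chr6:99520994-99521243 on the minus strand (Foxp1), chr4:99656049-99656298 on the plus strand (Foxd3), chr3:52268087-52268336 on the plus strand (Foxo1) and chrX:7579426-7579675 on the plus strand (Foxp3).
Foxa2: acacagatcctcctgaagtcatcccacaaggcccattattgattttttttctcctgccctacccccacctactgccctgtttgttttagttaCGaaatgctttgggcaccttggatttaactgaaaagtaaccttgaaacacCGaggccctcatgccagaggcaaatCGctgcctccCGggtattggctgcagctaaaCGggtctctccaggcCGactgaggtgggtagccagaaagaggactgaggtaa
Foxb2: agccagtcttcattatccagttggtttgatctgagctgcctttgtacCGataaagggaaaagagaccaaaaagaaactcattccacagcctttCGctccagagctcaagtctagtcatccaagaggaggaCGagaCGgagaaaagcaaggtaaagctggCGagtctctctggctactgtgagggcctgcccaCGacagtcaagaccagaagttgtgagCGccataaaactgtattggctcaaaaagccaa
Foxp1: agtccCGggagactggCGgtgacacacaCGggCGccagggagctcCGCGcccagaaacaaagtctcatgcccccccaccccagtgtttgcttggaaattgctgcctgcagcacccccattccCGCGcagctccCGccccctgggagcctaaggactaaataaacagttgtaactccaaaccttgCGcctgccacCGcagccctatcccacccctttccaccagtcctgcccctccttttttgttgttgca
Foxd3: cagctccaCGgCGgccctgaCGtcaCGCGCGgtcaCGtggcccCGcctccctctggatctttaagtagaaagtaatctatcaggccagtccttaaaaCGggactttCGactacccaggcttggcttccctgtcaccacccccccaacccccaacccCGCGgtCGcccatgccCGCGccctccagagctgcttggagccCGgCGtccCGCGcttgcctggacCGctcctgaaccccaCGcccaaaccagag
Foxo1: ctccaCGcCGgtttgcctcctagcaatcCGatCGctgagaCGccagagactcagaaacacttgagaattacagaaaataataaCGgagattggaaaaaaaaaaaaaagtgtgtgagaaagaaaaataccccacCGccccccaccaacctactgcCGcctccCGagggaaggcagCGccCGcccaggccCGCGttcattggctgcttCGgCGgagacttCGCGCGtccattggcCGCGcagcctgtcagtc
Foxp3: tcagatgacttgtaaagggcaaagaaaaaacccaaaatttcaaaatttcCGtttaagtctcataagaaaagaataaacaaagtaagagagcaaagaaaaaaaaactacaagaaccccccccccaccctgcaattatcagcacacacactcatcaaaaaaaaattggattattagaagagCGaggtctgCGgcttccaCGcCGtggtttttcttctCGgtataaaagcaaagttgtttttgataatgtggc

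The family as a whole was marked more often than all genes, and its developmental members more often than the other 11. The B cell and broadly expressed classes were not told apart by these counts. For each gene the end with the higher mean cover over the 4 libraries was taken, and it counts as marked once a list covers 25% or more of the 4000 bp around it. Of 41 members, 31 and 33 were marked in KO cells, and 31 and 28 in WT cells. Over all protein-coding genes the marked share was 33.5% and 46.3% in KO cells, and 40.8% and 26.3% in WT cells. In all 4 libraries 28 members were marked, against 24.1% of all genes, and 7 members were marked in none. The 28 comprised 26 of 30 developmental members, 1 of 8 broadly expressed members (Foxo3) and 1 of 3 B cell expressed members (Foxp1). Developmental members numbered 27 and 27 among the marked in KO cells and 27 and 26 in WT cells, and broadly expressed members 3 and 5 in KO cells and 3 and 1 in WT cells.

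**Figure D1:**
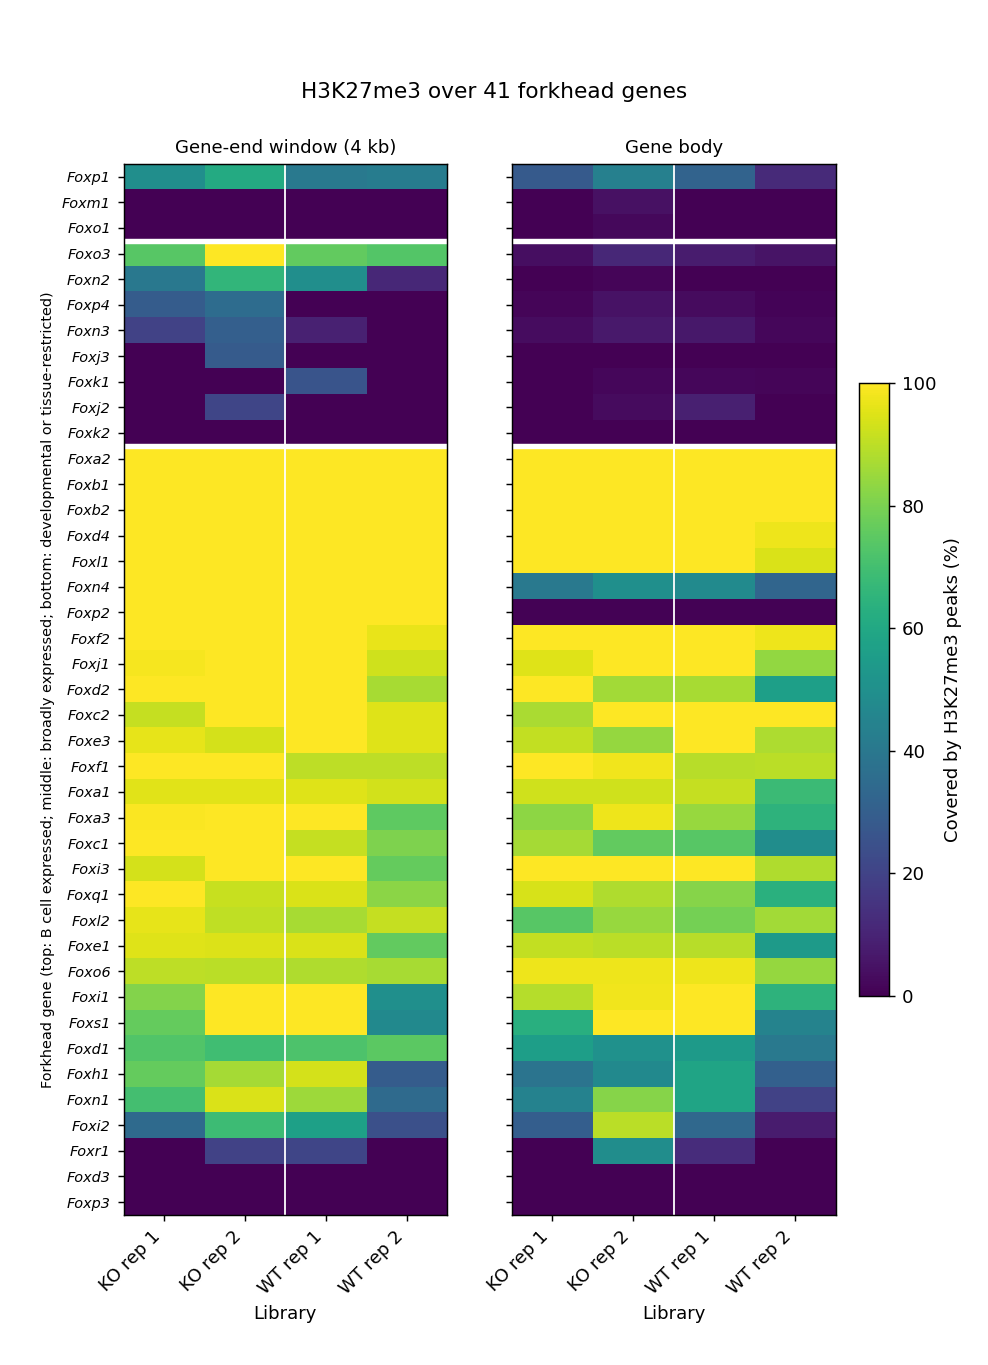
Share of the gene-end window (left) and of the gene body (right) covered by H3K27me3 peaks, in percent, for 41 forkhead genes (down) in the 2 KO libraries and the 2 WT libraries (across). Developmental members were mostly covered in every library, with Foxd3 and Foxp3 at 0, and of the B cell expressed members Foxp1 alone was covered at its gene end.

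Foxo1 and Foxm1 had no mark at either gene end in any library. Foxo1 (gene ID 56458, chr3:52268337-52350109) had a gene-end share of 0% in every library, and its body was covered to 0% and 2.15% in KO cells and to 0% in both WT libraries. Foxm1 (gene ID 14235, chr6:128362994-128375886) likewise had 0% at its gene end throughout, and its body was covered to 0% and 4.44% in KO cells and to 0% in both WT libraries. The small cover in both genes came from KO replicate 2, the library with the longest covered length, so the genotypes overlapped. The nearest peak to Foxo1 lay 9972 bp away in KO replicate 1, and 8509 and 11264 bp away in WT replicates 1 and 2.

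Foxp1 was the exception among the B cell expressed members. This gene (gene ID 108655, chr6:98925342-99522746, minus strand) is 597405 bp long and was covered over 28.5% and 43.7% of its body in KO cells, and 32.0% and 12.0% in WT cells. The narrowest library was again lowest and the broadest highest, and the genotypes overlapped. Its gene-end window was covered to 49.6% and 61.1% in KO cells, against 40.6% and 42.1% in WT cells, so that both KO libraries were above both WT libraries there. The difference of 14.0 percentage points (SE 5.82, n = 2 mice each) did not pass limma over all genes (adjusted p = 0.896).

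The mark on Foxp1 lay over its upstream part and stopped inside the gene. The reference lists 3 starts. Around the outermost, the 4000 bp window was covered to 93.4% and 89.1% in KO cells, and to 83.1% and 63.6% in WT cells. The window at the second start, 254 kb further in, was covered to 100% and 93.6% in KO cells, and to 94.4% and 9.50% in WT cells. WT replicate 2 alone was low there, while its cover at the outermost start was 63.6%. At the innermost start, 493 kb in, the shares were 50.8% and 72.8% in KO cells, and 79.4% and 11.4% in WT cells. Both inner starts thus had cover over 50% in 3 libraries and little in the narrowest.

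Between the outermost and the second start, 53.0% and 71.7% of Foxp1 was covered in KO cells, and 51.8% and 22.8% in WT cells. Between the second and the innermost start it was 13.1% and 30.8% in KO cells, and 22.6% and 4.74% in WT cells. In the last 103 kb, downstream of the innermost start, cover was 1.99% and 3.62% in KO cells, and 4.16% and 0.748% in WT cells. The decline along the gene was therefore seen in each of the 4 libraries. From 550 to 600 kb, across the far end, every library was at 0, and past it the mark resumed, with 33.0% and 51.6% of the next 25 kb covered in KO cells and 27.6% and 5.65% in WT cells.

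**Figure D2:**
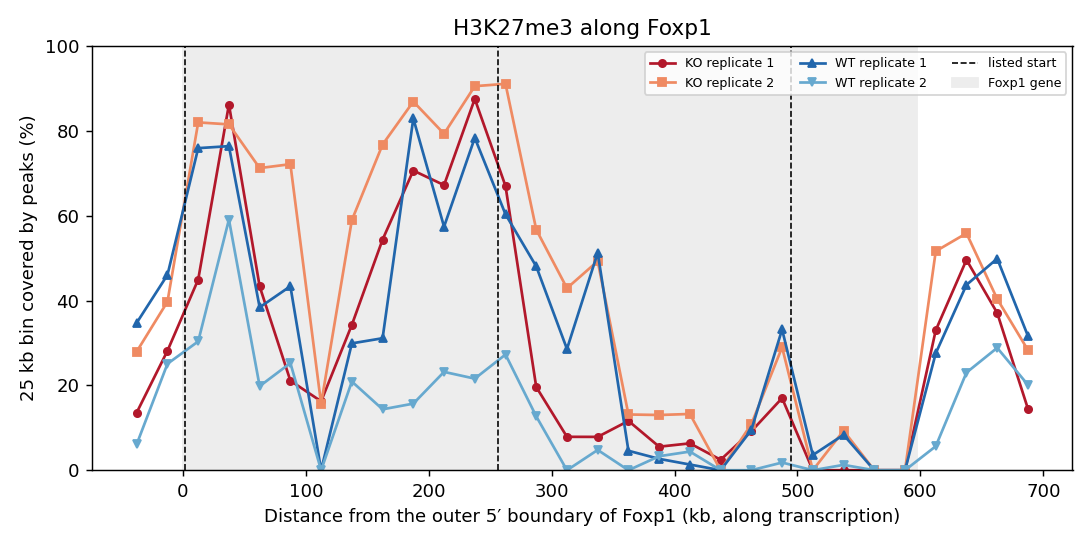
Share of 25 kb bins covered by H3K27me3 peaks (percent, vertical) against distance from the outer 5′ boundary of Foxp1 along transcription (kb, horizontal), 1 line per library, with listed starts dashed and the gene shaded. The highest bins of each library lie in the first 275 kb, with a dip at 100 to 125 kb, and cover is lowest in most bins in WT replicate 2, and 0 in every library from 550 to 600 kb.

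The 8 broadly expressed members were mostly unmarked or marked in some libraries only. The exception was Foxo3, a factor of stress resistance and quiescence (gene ID 56484, chr10:42181845-42276695, minus strand). Its start window was covered to 74.0% and 100% in KO cells, and to 76.0% and 73.4% in WT cells, and KO replicate 2 alone stood above the rest. Over its 94851 bp body the shares were 3.72% and 11.2% in KO cells, and 7.69% and 5.29% in WT cells. The mark on Foxo3 was thus at its start and covered little of its body, while Foxo1 had none at its start.

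Foxn2 was covered at its gene end to 39.9% and 65.7% in KO cells, and to 49.4% and 11.1% in WT cells. Only the narrowest library was under 25%. Foxj2 reached 0% and 20.8% in KO cells and 0% in both WT libraries, and Foxj3 0% and 28.8% in KO cells and 0% in both WT libraries. Foxk1, a repressor of autophagy and regulator of glucose metabolism, had 0% in both KO libraries, and 25.8% and 0% in WT cells. Its close relative Foxk2 had no peak in its gene-end windows or body in any library. In Foxj2, Foxj3 and Foxk1 a single library, each time a broad one, carried all the cover of the gene-end window.

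Foxp4 and Foxn3 were the broadly expressed members with both KO libraries above both WT libraries. Foxp4, which acts in lung and gut development (gene ID 74123, chr17:47867133-47924632, minus strand), was covered to 29.0% and 35.4% in KO cells and to 0% in both WT libraries. That window was at the far end of the gene, and the window at its listed start was at 0% in every library. Foxn3, a repressor tied to the cell cycle checkpoint (gene ID 71375, chr12:99190081-99563667, minus strand), had 19.8% and 30.1% in KO cells, and 9.05% and 0% in WT cells. Its listed start lies 114 kb inside the annotated gene end, and the window there was at 0% in every library. For both genes the genotypes were apart at an outer gene end and not at the listed start.

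Most developmental members were covered at both ends. The median gene-end share over the 30 was 96.4% and 100% in KO cells, and 100% and 87.0% in WT cells, against medians over all genes of 0% and 20.1% in KO cells and 4.98% and 0% in WT cells. Of the 30, 18 were covered to at least 80% in every library and 7 to 100% in every library. Those 7 were Foxa2, a factor of endoderm and liver, Foxb1 and Foxb2 of the embryonic nervous system, Foxd4, Foxl1 of the gut mesenchyme, Foxn4 of retinal progenitors, and Foxp2 of the brain. Both gene ends were marked in every library for 22 of 30 developmental members and 0 of the other 11, against 6.72% of all genes. At least 50% of the body was covered in every library for 19 of 30 and 0 of 11, against 6.43% of all genes. Developmental members were short, with a median length of 3759 bp against 17170 bp over all genes and 59009.5 bp over the broadly expressed members. The counts are not adjusted for length.

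Foxp2 and Foxn4 showed the mark at an end with less over the body. Foxp2 is 540629 bp long, and 0.492% and 0.567% of its body was covered in KO cells, and 0.768% and 0.578% in WT cells, although the window at its lower-coordinate end was covered to 100% in every library. In the body of Foxp2 both KO libraries were below both WT libraries, by 0.144 points between the means (SE 0.863, limma adjusted p = 1.0). Foxn4 was covered over 40.6% and 49.9% of its body in KO cells, and 47.8% and 32.7% in WT cells. Foxp2 and Foxp1, close relatives of similar length, thus differed in extent, with Foxp2 marked at an end and Foxp1 over much of its upstream part.

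The strongest peaks at most of the marked developmental members ranked high by the authors' signal. Within each list, the strongest peak touching a member was placed among all peaks by its highest signal. For the 26 developmental members marked in every library, the median of that percentile was 99.0 and 98.7 in KO cells, and 98.3 and 98.8 in WT cells, and 19 of the 26 were at or above the 95th percentile in every list. The median length of their longest peak was 11860 and 12247 bp in KO cells, and 12505 and 6856 bp in WT cells. A high rank was not particular to this class, as Foxo3 had one too. By the same percentile Foxo3 was at 95.5 and 97.8 in KO cells, and 98.1 and 97.0 in WT cells. Foxp1 was at 98.3 and 98.3 in KO cells, and 97.9 and 93.0 in WT cells. This long gene was touched by 88 and 92 peaks in KO cells, and by 78 and 72 in WT cells. The percentile takes the highest of these peaks and was not adjusted for their number. That of Foxp1 therefore cannot be set beside that of genes with few peaks. The percentile was not computed over all marked genes. A stretch of at least 5000 bp common to all 4 libraries touched the gene or the 2000 bp to either side in 20 of 30 developmental members and 0 of the other 11. The same count over all genes was not made.

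The longest common stretch, 11350 bp, was at Foxf2, a factor of gut and palate mesenchyme, whose gene-end window was covered to 100% and 100% in KO cells and to 100% and 96.7% in WT cells. Next were Foxd2 with 11326 bp, Foxb2 with 11275 bp, Foxl2 of the ovary with 10955 bp and Foxo6, a FOXO gene of the brain, with 10443 bp. A stretch of 9908 bp reached both Foxl1 and Foxc2, and one of 9833 bp lay over Foxa2. Foxd2 was covered at its gene end, here the far end, to 100% in both KO libraries, and to 100% and 87.0% in WT cells. At its listed start the shares were 80.3% and 90.9% in KO cells, and 91.3% and 32.7% in WT cells. By gene end, Foxl2 had 96.4% and 90.4% in KO cells, against 86.8% and 91.2% in WT cells, and Foxc2 91.2% and 100% against 100% and 95.1%. Foxo6 had 90.0% and 89.5% in KO cells, against 88.0% and 87.0% in WT cells. In this set Foxo6 was the one gene whose groups did not overlap, and its 4 values lay within 87.0% to 90.0%.

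Some members lie within 100 kb of each other, in 3 clusters, and were marked together. Foxf1, Foxc2 and Foxl1, all genes of mesoderm, lie at chr8:121084386-121130644, and 60.3% and 83.3% of that span was covered in KO cells, and 73.1% and 65.7% in WT cells. The 8789 bp between Foxc2 and Foxl1 were covered to 100% in both KO libraries, and to 100% and 97.8% in WT cells. Foxd2 lies with the lens gene Foxe3 at chr4:114906280-114926067, with 47.4% and 62.1% covered in KO cells and 63.8% and 27.4% in WT cells. Foxq1 and Foxf2 lie at chr13:31558170-31631406, with 46.4% and 47.4% covered in KO cells and 47.4% and 30.1% in WT cells. In each cluster the genotypes overlapped. Members of a cluster share peaks and are not independent of each other.

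Of the developmental members, 4 were not marked in every library. Foxd3, a factor of neural crest and early embryo cells (gene ID 15221, chr4:99656299-99658671), had 0% in its gene-end window and body in every library. The nearest peak was 436779 and 297558 bp away in KO cells, and 309460 and 271953 bp away in WT cells. It lay in a stretch of 710 kb on chromosome 4 with no peak in any library, together with Alg6, Itgb3bp, Efcab7 and Pgm1. There were 585 such stretches at least as long in the genome, and they held 14.8% of all protein-coding genes.

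Foxp3, the regulator of regulatory T cells (gene ID 20371, chrX:7579676-7595243), also had 0% in every library, with the nearest peak 2196 and 2080 bp away in KO cells and 11739 and 13431 bp away in WT cells. Of 966 genes on X, 126 and 182 were marked in KO cells, and 153 and 91 in WT cells. That was 13.0% and 18.8% in KO cells, against 33.5% and 46.3% of all genes. In WT cells it was 15.8% and 9.42%, against 40.8% and 26.3% of all genes. Foxr1 had 0% and 19.8% in KO cells, and 20.8% and 0% in WT cells, with cover in the broad library of each genotype. Foxi2 had 34.4% and 68.5% in KO cells, and 56.8% and 24.3% in WT cells. It missed the threshold of 25% in WT replicate 2 alone, and the next lowest member above the threshold in that library was Foxh1, a partner of SMAD proteins in Nodal signalling, at 29.1%.

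Several marked developmental members were low in WT replicate 2. Foxh1 was covered to 76.2% and 86.4% in KO cells, and to 93.4% and 29.1% in WT cells. Foxn1, the factor of thymic epithelium, had 70.1% and 94.2% in KO cells, and 85.2% and 34.6% in WT cells, and Foxi1, of ionocytes and the inner ear, had 81.2% and 100% against 100% and 49.8%. Foxs1 had 76.4% and 100% in KO cells, and 100% and 47.4% in WT cells. In each of these 4 the low value belonged to WT replicate 2, and WT replicate 1 was at or above KO replicate 1. WT replicate 2 was the lowest of the 4 gene-end values for 18 members and the lowest of the 4 body values for 22.

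Outside the genes, cover fell with distance around developmental members and was not highest beside the gene around the broadly expressed ones. In the first 5 kb, averaged over both sides, 64.8% and 73.1% was covered beside developmental members in KO cells, and 71.1% and 56.2% in WT cells. At 20 to 25 kb it was 24.7% and 33.5% in KO cells, and 31.4% and 20.8% in WT cells. Broadly expressed members had 16.5% and 23.3% in the first 5 kb in KO cells, and 21.5% and 8.58% in WT cells, while all genes had 14.7% and 22.1% in KO cells and 19.5% and 10.7% in WT cells. At 30 to 35 kb the broadly expressed members had 22.1% and 38.2% in KO cells, and 29.0% and 16.9% in WT cells, against 17.3% and 30.1% beside developmental members in KO cells and 26.5% and 14.0% in WT cells. At these distances the libraries stood in the order of their covered lengths, with KO replicate 2 highest and WT replicate 2 lowest.

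**Figure D3:**
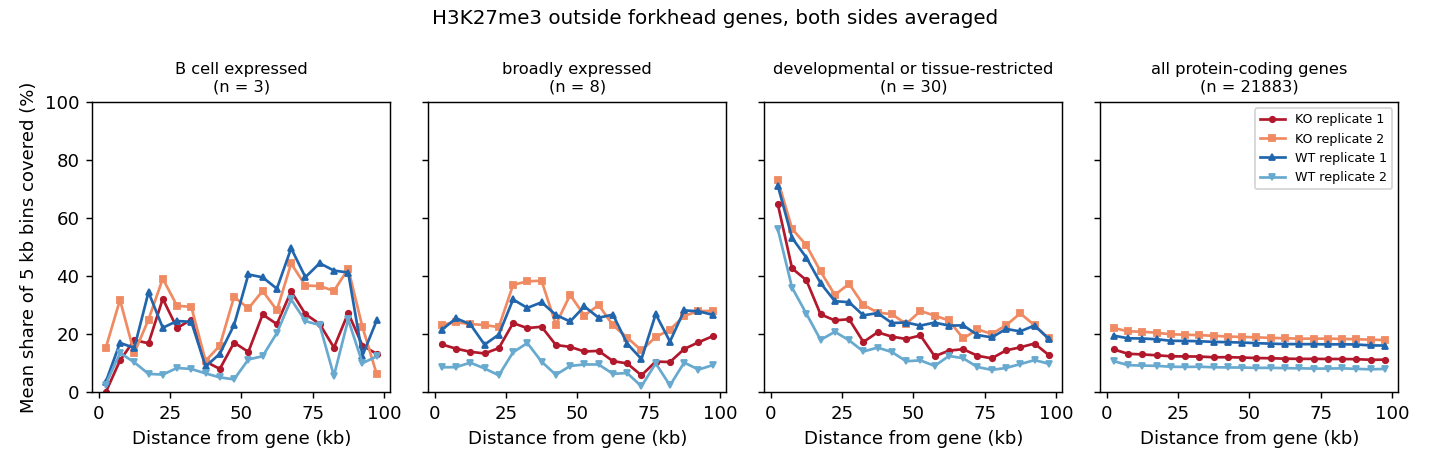
Mean share of 5 kb bins covered by H3K27me3 peaks (percent, vertical) against distance from the gene (kb, horizontal, both sides averaged) for B cell expressed, broadly expressed and developmental or tissue-restricted members and all protein-coding genes, 1 line per library. Beside developmental members cover starts at 56.2% to 73.1% and falls with distance, while the other panels show no such peak beside the gene.

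Start sequences were compared with the mark for the 27 members that the reference lists with a start. Foxb1, Foxc2, Foxe1, Foxf1, Foxh1, Foxj1, Foxk1, Foxl1, Foxm1, Foxn2, Foxo6, Foxp2, Foxq1 and Foxs1 had no entry. At the start itself 17 of the 27 were marked in every library, 15 of 19 developmental members among them, and by gene end it was also 17 of the 27. The median number of CG pairs in the 250 bases before the start was 15 in developmental members (n = 19), 32.5 in broadly expressed members (n = 6), 15.5 in the B cell expressed members Foxo1 and Foxp1, and 10 over 17491 genes. The pair CG was present at least once in the 250 bases of 92.6% of those genes.

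The number of CG pairs before the outermost listed start did not order the members by their mark. Foxd3 had 21 CG pairs and no mark, while Foxf2, also with 21, was covered at its start to 100% in both KO libraries, and to 100% and 96.7% in WT cells. In the sequences shown above, Foxa2 with 6 and Foxb2 with 7 were covered to 100% in every library, while Foxp3 with 6 was at 0%. Foxo1, with 20 CG pairs, was unmarked, and Foxp1, with 11, was marked. Inner starts of a gene can differ from its outermost one. Those of Foxa2 had 20 and 13 CG pairs and were also covered to 100% in every library. The inner starts of Foxp1 had 3 and 34 CG pairs, and that of Foxp3 had 7. Foxk2, with 48, was at 0% in every library. Among all genes, starts with 0 to 2 CG pairs were marked in every library in 8.19% of cases and those with 21 or more in 27.2%. In between, the share was 19.4% with 3 to 5 pairs, 26.3% with 6 to 10 and 24.7% with 11 to 20. It thus differed little from 6 pairs on.

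**Figure D4:**
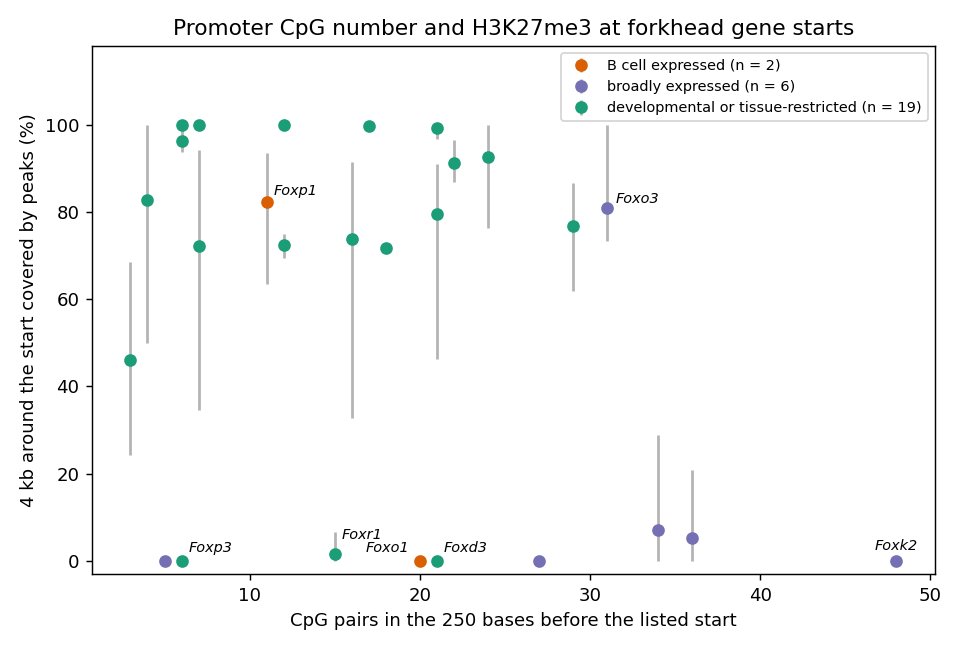
Share of the 4000 bp around the outermost listed start covered by H3K27me3 peaks (percent, vertical, points are means of the 4 libraries and bars run from the lowest to the highest library) against the number of CG pairs in the 250 bases before it (horizontal), for 27 forkhead genes in 3 classes. Covered and uncovered starts occur at similar CG numbers, and Foxd3 with 21 pairs is at 0.

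The comparison of the genotypes asks where the mark differs when a demethylase of H3K27 is lost. No forkhead gene differed between KO and WT cells by limma at an adjusted p under 0.05, at its gene end or in its body. By limma, 0 of 13841 gene ends with cover in any library were higher in KO cells (0.0%) and 0 lower (0.0%), and 490 and 66 had an unadjusted p under 0.05. For bodies 2 of 13802 were higher (0.0145%) and 0 lower (0.0%), and neither of the 2 was a forkhead gene. Of the members, 36 had cover at a gene end and 37 in the body, and the smallest adjusted p was 0.896 for gene ends and 1.0 for bodies. With 2 mice per genotype, limma draws the spread of each gene towards a value shared by all genes.

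Both KO libraries were above both WT libraries at the gene end of 8 of the 36 members with cover, against 14.4% of all genes with cover, and below them at 0, against 2.26%. The 8 were Foxp1, Foxp4, Foxn3, Foxa1, Foxc1, Foxe1, Foxf1 and Foxo6. In the body it was 6 of 37 above, against 12.3% of all genes with cover, and 1 below (Foxp2), against 2.75%. The 6 were Foxa1, Foxc1, Foxe1, Foxf1, Foxo6 and Foxq1. Foxa1, Foxc1, Foxe1, Foxf1 and Foxo6 were in both sets.

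The widest of these differences at gene ends was that of Foxp4, whose values are given above, at 32.2 points (SE 4.13, unadjusted p = 0.00535, adjusted p = 0.896 by limma). It was 14.5 points when every list was reduced to the same covered length by total signal, 47.6 points in a window of 1000 bp to each side and 15.7 points in one of 5000 bp. Foxn3 followed with 20.4 points (SE 6.56), which was 4.17 points at equal covered length and 3.20 points in the window of 1000 bp. The 14.0 points of Foxp1 became 3.69 points at equal covered length and 26.4 points in the window of 1000 bp. These 3 differences thus moved by over 1.5 times with the peaks or window used.

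Foxc1, a gene of eye and vessel development, was covered at its gene end to 100% in both KO libraries, against 91.2% and 80.8% in WT cells, a difference of 14.0 points (SE 5.39). That window was at the far end of Foxc1. At its listed start the shares were 86.6% and 75.9% in KO cells, and 82.8% and 61.9% in WT cells. The genotypes overlapped there, with a difference of 8.91 points between the means. Its body was covered to 86.6% and 75.8% in KO cells, and to 74.0% and 48.9% in WT cells. Foxf1, needed for lung and gut mesenchyme, had 100% in both KO libraries, against 89.9% and 90.1% in WT cells, a difference of 9.99 points (SE 3.14), and its body had 100% and 97.9% against 89.4% and 89.8%. The gene-end windows of both genes were covered to over 80% in every library, and the WT libraries fell short of the full window. Neither passed limma (adjusted p = 0.896 for both gene ends). In the window of 1000 bp the difference was 3.25 points at Foxc1 and 20 points at Foxf1, at equal covered length it was 20.4 points at Foxc1, and with uncovered genes kept in the fit Foxf1 passed (adjusted p = 0.0443 by limma).

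Foxe1, a thyroid gene, was covered to 95.1% and 94.6% in KO cells, against 94.2% and 75.8% in WT cells. Foxq1 in its body had 93.9% and 87.9% in KO cells, against 81.7% and 63.4% in WT cells. Foxa1, a factor of endoderm, had 92.8% and 92.9% of its body covered in KO cells, against 91.1% and 68.1% in WT cells, and at its gene end all 4 libraries lay between 93.1% and 95.5%. For Foxe1 and Foxa1 the nearest libraries of the genotypes were under 2 points apart, and without WT replicate 2 the gene-end difference of Foxe1 was 0.575 points, against 9.80 points with it.

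**Figure D5:**
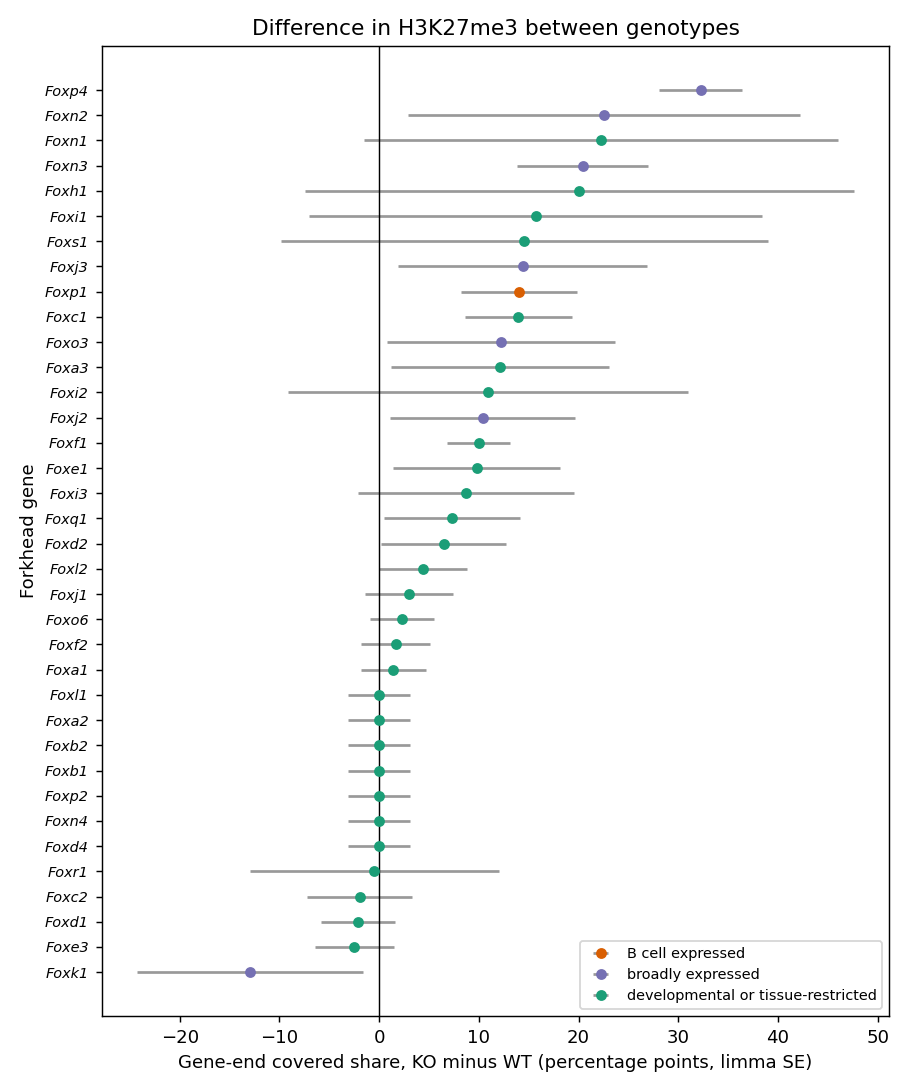
Difference in the covered share of the gene-end window, KO minus WT (percentage points, horizontal), with bars of 1 limma standard error, for the 36 forkhead genes with cover in any library, coloured by class. Foxp4 stands highest at 32.2 points and Foxk1 lowest at -12.9 points, and no member passed limma at an adjusted p under 0.05.

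Over the 36 members with cover the median difference at gene ends was 6.89 points, with a higher KO mean in 24 members, a lower one in 5 and equal means in 7. All genes with cover had a median of 6.61 points, and 70.5% were higher in KO cells. Without WT replicate 2 the members' median was 0 points, with 14 higher and 13 lower, and 42.1% of all genes were higher. Without KO replicate 2 the median was 2.46 points over 34 members with cover, against 0 over all genes. It was larger without WT replicate 1, at 10.4 points against 14.1 over all genes, and without KO replicate 1, at 7.94 points against 13.3 over all genes. At equal covered length it was 3.35 points over 32 members with cover, against 0.0625 over all genes. The median over the members, like that over all genes, thus moved when a single library was left out.

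The forkhead genes with 2000 bp to each side span 2375 kb, of which 395 and 542 kb were covered in KO cells and 449 and 253 kb in WT cells. This made up 0.274% and 0.230% of the covered length in KO cells, and 0.211% and 0.249% in WT cells. By length the B cell expressed class, most of which is Foxp1, had 24.2% and 37.5% covered in KO cells and 27.2% and 10.2% in WT cells, against 24.2% and 27.3% of the developmental class in KO cells and 25.9% and 19.9% in WT cells.

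Genes that act with FOXO1 and FOXM1 were read in the same way, from lists that hold their known regulators and targets. Of 14 genes upstream of FOXO factors, which pass on signals from the B cell receptor and PI3K, 4 and 7 were marked in KO cells and 3 and 2 in WT cells, and 0 passed limma in either direction. Pik3r1, the regulatory subunit of PI3K, was covered to 41.8% and 28.9% in KO cells, against 1.73% and 2.03% in WT cells. Both KO libraries were well above both WT libraries, by 33.5 points between the means (SE 6.23, limma adjusted p = 0.896). Akt1, a kinase that keeps FOXO factors out of the nucleus, had 36.2% and 75.7% in KO cells, and 46.2% and 0% in WT cells.

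Of 24 FOXO1 targets, 13 and 16 were marked in KO cells and 13 and 10 in WT cells, 10 of them in every library, and 0 passed limma. That was 54.2% and 66.7% in KO cells, against 33.5% and 46.3% of all genes. In WT cells it was 54.2% and 41.7%, against 40.8% and 26.3% of all genes. In every library it was 41.7%, against 24.1% of all genes. Those marked throughout included Rag1 and Rag2, which cut antigen receptor genes in B cell precursors, and the homing genes Ccr7 and S1pr1. Klf2, a factor of B cell trafficking, had 93.2% and 100% in KO cells, against 91.1% and 23.6% in WT cells. Gadd45b, a stress gene, had 22.4% and 31.9% in KO cells, against 8.48% and 0% in WT cells, and Ccnd2, a G1 cyclin, had 100% in both KO libraries, against 90.5% and 58.5% in WT cells. Groups did not overlap for 5 of the 22 targets with cover, all 5 with KO above, against 14.4% of all genes.

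The 20 FOXM1 targets, genes of mitosis and its control, were nearly free of the mark. In KO cells 0 and 2 of them were marked and in WT cells 3 and 0, none was marked in every library, and 0 passed limma. The marked share was thus 0% and 10% in KO cells, against 33.5% and 46.3% of all genes. In WT cells it was 15% and 0%, against 40.8% and 26.3% of all genes. Top2a, which untangles DNA, had 20.4% and 26.8% in KO cells and 0% in both WT libraries, and Birc5, a survival and mitosis gene, had 21.4% and 15.5% in KO cells and 0% in both WT libraries. Cdc25b, a phosphatase that starts mitosis, was covered in WT replicate 1 alone, at 45.4%. Groups did not overlap for 3 of the 11 targets with cover (Top2a, Birc5 and Ccna2), with KO above in each, against 14.4% of all genes.

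Other families of developmental factors were counted in the same way. Of 39 Hox genes, 38 were marked in every library, and of 45 Sox, Pax and T-box genes 39 were, against 26 of 30 developmental forkhead genes and 24.1% of all genes. These shares were not tested against each other.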

How the data were processed

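H3K27me3 CUT&Tag was measured in 4 libraries, 2 KO and 2 WT, grouped by the genotype in the labels. The authors deposited 1 peak list per library, not pooled, with positions on mm10 and the total and highest signal (coverage) of each peak. The submitters' processing notes name SEACR, deepTools, Bowtie2 2.4.2, Trim Galore 0.6.6 and SAMtools 1.11. How these were set, which control SEACR used and what scale the signal has were not stated there. Signal was therefore used only to rank peaks within a list, as the authors' value. Read depth is unknown and no counting interval was computed, so precision depends on how far the 2 mice of a genotype differ.

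Covered shares were computed from peak positions with Python 3.11.15, numpy 2.4.6 and pandas 2.3.3, and figures drawn with matplotlib 3.10.9. The gene table (RefSeq, GRCm38.p6) gives no strand, so a gene end is the lower or higher coordinate, and starts and strands came from the RefSeq promoter table where listed. Shares were compared by limma 3.58.1 (lmFit, eBayes without trend, two-sided) in R 4.3.3, over all protein-coding genes with cover in any library, calling an adjusted p (Benjamini-Hochberg) under 0.05. The fitting code was tested on simulated data. Counts over members carry no test. Values in every library are given for the B cell and broadly expressed members, for developmental members not marked throughout, for members whose groups did not overlap, and for the 8 with the longest common stretch. The members, classes, gene lists and this rule were chosen with earlier results of these data known. Alternatives covered the window, the threshold of 25%, the peaks used, the fit and each library left out. Exons, introns and UTRs were not used here.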

Additional observations from a re-analysis of the deposited data

How the results depend on the processing

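The gene-end differences of Foxa1, Foxc1, Foxe1, Foxf1, Foxn3, Foxo6, Foxp1 and Foxp4 and the body difference of Foxf1 were recomputed under the alternatives, and none changed sign. Keeping genes without cover in the fit gave 21 called gene ends (19 higher and 2 lower in KO cells) and 8 called bodies, and there the gene end of Foxf1 passed with an adjusted p of 0.0443 for the same 9.99 points. In the other fits the count of gene ends was 0, and that of bodies was 0 at equal covered length by total signal, with stricter peaks, with covered length as a covariate, on the arcsine scale and, as a range, 0 to 0 without each library in turn, against 2 as reported. Equal covered length by highest signal, an alternative chosen after seeing the data, gave 1 body, lower in KO cells. The cause was not tested. At the gene start, where 27 members could be placed, 18 and 19 members were marked in KO cells and 18 and 17 in WT cells, and 17 in every library. Fewer members could be placed there, and by gene end the same 27 gave 19 and 21 in KO cells, 18 and 17 in WT cells and 17 in every library. Marked in every library were 23 to 30 of 41 members under the other windows, thresholds, peak sets and the gene body, and 28 to 30 without each library in turn. Members with both KO above both WT numbered 3 in the window of 1000 bp and 2 at the gene start, against 8, and members below numbered 1 for the gene body, against 0. The covered length over forkhead genes in KO replicate 2 was 343 kb at equal covered length and 364 kb when ranked by highest signal, against 542 kb as reported. Foxp4 had no cover left at equal covered length by highest signal or at its start, and so no value there. Ranking by total signal kept 11850 of the 90417 peaks of KO replicate 2, mostly long ones. The difference at Foxa1, 1.43 points as reported, was 0 points in the window of 1000 bp, 9.71 points in that of 5000 bp and 22.9 points at the gene start. No paired analysis was possible because the replicate numbers only name the libraries and nothing in the labels ties a KO mouse to a WT mouse. With 2 mice per genotype and unknown read depth, a difference of the size of the spread between libraries was not detectable, and the covered length of single libraries moved values in both genotypes.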
